A study of Mus musculus with 6 samples.

Results

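A set of 10 genes that make or limit superoxide and nitric oxide was followed through the bulk RNA-sequencing data of mouse skin cultures held in normal or high glucose. The set holds the NADPH oxidase genes Nox4, Cyba and Cybb, the nitric oxide synthase genes Nos2 and Nos3, the cofactor enzyme gene Gch1, the dimethylarginine hydrolase genes Ddah1 and Ddah2 and the arginase genes Arg1 and Arg2. The genes were chosen by name from the 55487 genes of the count table. All 10 had enough counts to be tested among 19015 genes. The 6 cultures are labelled as C57BL/6 skin endothelial cells enriched with CD31 beads. Per the methods of the study, such cells came from skin digests that pooled 4 to 6 mice aged 2 to 3 months. Of the 6 cultures, 3 were kept at 5 mmol/L glucose (normal glucose) and 3 at 20 mmol/L (high glucose) for 48 hours. The study counts its replicates as mice, whereas a digest pooled several, and the labels tie no replicate to a mouse or an isolation. P values therefore measure the spread between these cultures, part of which may be technical. The study made the comparison while asking whether endocytic adaptors have a role in the blood vessel growth of diabetes.

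Total counts per culture lay between 120192466 and 146881356, and a floor of 3 counts corresponded to 0.0204 to 0.0250 CPM (counts in proportion to the library total). The label was checked against marker genes. Pecam1, which encodes CD31, had 9 to 19 counts per culture, Tie1 had 0 to 2, and Sox17 had 0 in all 6. For Cdh5, normal glucose cultures held 231, 242 and 236 counts and high glucose cultures 130, 91 and 125. The fibroblast collagen gene Col1a1 had between 1007482 and 1944287 counts. Other genes of the endothelial list were detected at higher counts, with 15854 to 22307 for Eng, 4457 to 8030 for Flt1, 1113 to 1464 for Egfl7 and 576 to 777 for Kdr. Since the markers of this list thus disagreed with each other and fibroblast collagen was abundant, the samples are called cultures below. In such bulk samples, fewer cells of a type and less RNA per cell cannot be told apart.

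NADPH oxidases pass electrons from NADPH to oxygen. NOX4, the form encoded by Nox4, is constitutively active and releases mainly hydrogen peroxide, while the phagocyte form encoded by Cybb produces superoxide, and both need the partner protein p22phox encoded by Cyba. Nitric oxide synthases make nitric oxide from arginine with the cofactor tetrahydrobiopterin, whose synthesis begins with GTP cyclohydrolase, the product of Gch1. Arginases use the same arginine, and asymmetric dimethylarginine (ADMA), an inhibitor of the synthases, is broken down by the DDAH enzymes. In vessels the constitutive endothelial synthase is encoded by Nos3, and the synthase induced by inflammatory signals by Nos2.

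RefSeq sequences of the promoter were on hand for 6 of the 10 genes (Nox4, Cyba, Cybb, Gch1, Ddah1 and Ddah2), and not for Nos2, Nos3, Arg1 and Arg2. The 250 bases before the start site (GRCm38.p6) are shown for Nox4, Cyba and Gch1, the genes among these 6 whose transcript level passed the test described below. Capitals mark matches, on either strand, to 6 short motifs. The TATA box was searched as TATAAA and the GC box as GGGCGG. The CCAAT box was searched by the letters of its name. The AP-1 site was searched as TGANTCA. For the GAS site the letters were TTCNNNGAA. For the E-box they were CACGTG. The Nox4 window lies at chr7:87246399-87246648 on the plus strand, within the annotated span of the gene but outside its exons, the Cyba window at chr8:122432941-122433190 and the Gch1 window at chr14:47189414-47189663, the latter pair on the minus strand.
Nox4: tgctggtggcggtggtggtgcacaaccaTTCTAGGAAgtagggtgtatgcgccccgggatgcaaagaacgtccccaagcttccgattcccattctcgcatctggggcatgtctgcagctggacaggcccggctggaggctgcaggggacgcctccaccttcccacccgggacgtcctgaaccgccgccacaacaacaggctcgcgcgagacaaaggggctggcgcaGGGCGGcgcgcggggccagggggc
Cyba: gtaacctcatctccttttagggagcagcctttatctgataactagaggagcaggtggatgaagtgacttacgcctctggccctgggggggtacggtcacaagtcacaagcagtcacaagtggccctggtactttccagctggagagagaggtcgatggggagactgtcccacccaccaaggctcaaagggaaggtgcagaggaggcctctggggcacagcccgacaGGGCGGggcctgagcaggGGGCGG
Gch1: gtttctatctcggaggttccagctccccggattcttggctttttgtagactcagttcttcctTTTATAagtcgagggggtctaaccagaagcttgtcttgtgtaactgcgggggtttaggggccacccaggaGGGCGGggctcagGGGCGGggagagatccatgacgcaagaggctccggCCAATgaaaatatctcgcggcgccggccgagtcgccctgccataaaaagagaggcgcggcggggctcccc

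A GC box was found in each of the 3 windows, where 32.7% of 32851 RefSeq promoters of this length hold one. Its matches began 24 bases before the start in Nox4, 24 and 6 bases before it in Cyba, and 118 and 105 bases before it in Gch1. Nox4 also held a GAS site 222 bases before the start, a motif in 7.02% of all promoters. Gch1 held a CCAAT box 70 bases before the start (33.8% of all promoters) and a TATA box letter match on the opposite strand at 188 (12.4%). No match overlapped another, and neither an AP-1 site nor an E-box (6.75% and 6.02% of all promoters) lay in these windows. G and C made up 67.2% of the Nox4 window, 60.0% of the Cyba window and 59.2% of the Gch1 window, against a median of 52.4%. These matches describe the letters and were not tested for binding.

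In high glucose, Nos2 rose to 3.70 times its normal glucose level and Nox4 to 1.56 times, while Cyba fell by 23.5% and Gch1 by 20.1%. Levels are TMM-normalized CPM. Changes were tested by the quasi-likelihood method of edgeR, with P values adjusted (Benjamini-Hochberg) over all 19015 genes and called below 0.05. With this test 2 of the 10 genes were called higher and 2 lower, that is 40.0%, close to the 31.4% of all tested genes that were called in either direction. Higher calls made up 16.9% of all tested genes and lower calls 14.5%. The median log2 fold change of the 10 was -0.012, against 0.0062 over all tested genes. The 6 others did not pass, and 4 of them, Cybb, Nos3, Arg1 and Arg2, had fewer than 100 counts in every culture. For 5 of the 10 genes the groups did not overlap, as was the case for 46.4% of all tested genes (25.1% higher and 21.3% lower in high glucose).

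**Figure D1:**
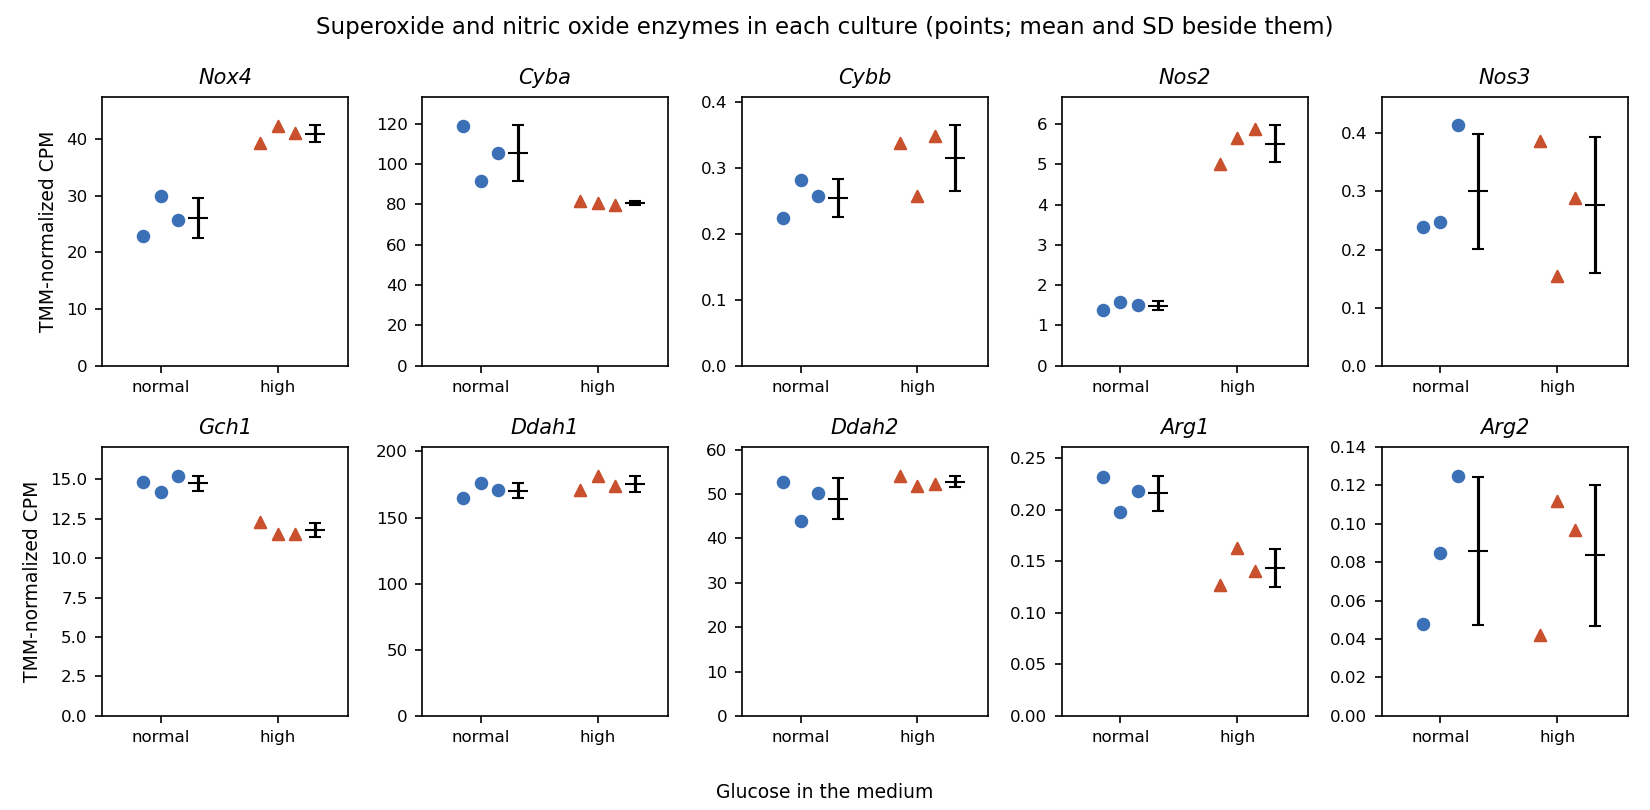
TMM-normalized CPM of each gene (vertical axes start at 0) in the 3 normal glucose cultures (circles) and the 3 high glucose cultures (triangles), with the mean and SD beside the points. The groups are apart for Nox4, Nos2, Cyba, Gch1 and Arg1 and overlap for the other 5 genes.

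Nox4 (ENSMUSG00000030562, chromosome 7 from 87246096 to 87398710, plus strand, GRCm38) had 22.8, 29.9 and 25.6 CPM in the 3 normal glucose cultures and 39.3, 42.3 and 41.0 CPM in the 3 high glucose cultures. Every high glucose culture was above every normal glucose culture, and the spread was wider in normal glucose (SD 3.54, n = 3) than in high glucose (SD 1.50, n = 3). The log2 fold change was 0.65 (standard error, SE, 0.087, edgeR adjusted P = 0.000302), from 2859 to 5574 counts per culture. Its 95% interval ran from 1.37-fold to 1.79-fold. A two-sided exact permutation test of the CPM gave P = 0.1, the smallest value that 3 cultures against 3 allow, and the same value was reached by Nos2, Cyba, Gch1 and Arg1.

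Cyba (ENSMUSG00000006519, chromosome 8 from 122424776 to 122432930, minus strand), which encodes the membrane partner that NOX4 needs for stability and activity, moved the opposite way. It had 119, 91.5 and 105 CPM in normal glucose and 81.7, 80.5 and 79.5 CPM in high glucose. All high glucose cultures were below all normal glucose cultures, and they lay close together (SD 1.08, n = 3) where the normal glucose cultures did not (SD 13.8, n = 3). The log2 change was -0.39 (SE 0.083, edgeR adjusted P = 0.00545). The ratio of Nox4 to Cyba, each per kb of exon, was 0.0311 ± 0.0083 in normal glucose and 0.0622 ± 0.0029 in the high glucose cultures (SD, n = 3).

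Cybb (ENSMUSG00000015340, chromosome X), the catalytic subunit of the phagocyte oxidase, was scarce. It had 28, 40 and 33 counts in the normal and 48, 30 and 47 in the high glucose cultures. The groups overlapped, and the log2 fold change of 0.31 did not pass the threshold (SE 0.229, edgeR adjusted P = 0.336). The interval of the difference, 0.871-fold to 1.76-fold, includes both a small fall and a rise of the size seen for Nox4. Markers of macrophages, in which this subunit is abundant, were unequal. Tyrobp had 0 counts in every culture, Ptprc 0 to 16 and Adgre1 0 to 3, whereas Csf1r had 364 to 795, Cd68 114 to 212, Lyz2 192 to 256 and Cd14 1203 to 2990. Csf1r shares 15.1% of its exon length with a gene on the opposite strand. The part of such cells in the Cybb counts was not tested.

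Nos2 (ENSMUSG00000020826, chromosome 11 from 78920787 to 78960254, plus strand) had the largest fold change of the 10. It had 172, 225 and 193 counts in the normal and 710, 658 and 792 in the high glucose cultures, or 1.37, 1.59 and 1.51 CPM against 5.00, 5.66 and 5.88 CPM. The lowest high glucose culture was more than 3 times the highest normal glucose culture. The log2 fold change was 1.89 (SE 0.107, edgeR adjusted P = 7.62e-07), with a 95% interval from 3.14-fold to 4.36-fold. The gene was still of modest abundance in high glucose, at 1.25 ± 0.10 CPM per kb of exon (SD, n = 3).

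Nos3 (ENSMUSG00000028978, chromosome 5 from 24364810 to 24384474, plus strand), the endothelial synthase, had 30, 35 and 53 counts in the normal and 55, 18 and 39 in the high glucose cultures. The groups overlapped over nearly their whole range, and no difference was detectable at this depth. The log2 fold change was -0.094 (SE 0.345, edgeR adjusted P = 0.865), and its interval ran from 0.550-fold to 1.60-fold. Exons of Nos3 share 294 bp (7.1% of their length) with Atg9b and 1040 bp (25.2%) with Gm15587 on the opposite strand. Counting is not stated to use strand. Atg9b had 22, 29 and 32 counts in the normal and 15, 10 and 16 in the high glucose cultures, of the same order as Nos3. Gm15587 had 0 to 3. Reads from the shared bases cannot be told apart without strand. On the scale of CPM per kb of exon, Nos2 was 4.93 ± 1.36 times Nos3 in normal glucose and 21.8 ± 11.3 times in the high glucose cultures (SD, n = 3). The high glucose ratios were 12.1, 34.2 and 19.0, where Nos3 had 55, 18 and 39 counts.

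Gch1 (ENSMUSG00000037580, chromosome 14 from 47153895 to 47189413, minus strand), the rate-limiting enzyme of tetrahydrobiopterin synthesis, had 14.8, 14.2 and 15.2 CPM in normal glucose and 12.3, 11.5 and 11.5 CPM in high glucose. The groups did not overlap and the replicates lay close together (SD 0.491 and 0.448, n = 3 each). The log2 fold change was -0.32 (SE 0.063, edgeR adjusted P = 0.00319). Nos2 and Gch1, which are often induced together by inflammatory signals, thus changed in opposite directions in these cultures. The ratio of Nos2 to Gch1 per kb of exon rose from 0.143 ± 0.014 to 0.665 ± 0.078 (SD, n = 3).

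The DDAH genes, which encode the enzymes that hydrolyse ADMA, were abundant and showed little difference. Ddah1 (ENSMUSG00000028194, chromosome 3) had 164, 176 and 170 CPM in normal glucose and 171, 182 and 173 CPM in high glucose. Ddah2 (ENSMUSG00000007039, chromosome 17) had 52.8, 44.0 and 50.2 CPM in normal glucose and 54.2, 51.9 and 52.3 CPM in high glucose. The groups overlapped for both genes. The log2 fold changes were 0.041 for Ddah1 and 0.11 for Ddah2 (SEs 0.052 and 0.069, adjusted P = 0.595 and 0.264). Their 95% intervals, from 0.949-fold to 1.11-fold for Ddah1 and from 0.969-fold to 1.20-fold for Ddah2, leave room only for changes far smaller than that of Nos2, and the sign of either value turned negative when counts were scaled by library size alone.

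Arginase transcripts were scarce. Arg1 (ENSMUSG00000019987, chromosome 10), the cytosolic form, had 29, 28 and 28 counts in the normal and 18, 19 and 19 in the high glucose cultures. The groups were apart, but with a log2 fold change of -0.59 (SE 0.263) the gene did not pass (adjusted P = 0.117), and across 17 alternative settings the adjusted P value lay between 0.0591 and 0.377. Arg2 (ENSMUSG00000021125, chromosome 12), the mitochondrial form, had 6, 12 and 16 counts in the normal and 6, 13 and 13 in the high glucose cultures. These groups overlapped almost fully, and the interval of the difference, 0.449-fold to 2.04-fold, covers a fall and a rise alike (log2 fold change -0.064, adjusted P = 0.937). Exons of Arg2 share 285 bp (20.0% of their length) with Vti1b on the opposite strand. Vti1b had 6277 to 7528 counts per culture, and its reads from the shared bases cannot be told apart from those of Arg2.

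Expressed per kb of exon, the 10 genes spanned more than 3 orders of magnitude. In normal glucose Cyba was highest at 101 ± 13.2 CPM per kb, followed by Ddah1 at 42.8 ± 1.47, Ddah2 at 30.8 ± 2.84, Nox4 at 3.08 ± 0.418, Gch1 at 2.36 ± 0.079 and Nos2 at 0.338 ± 0.024 (SD, n = 3 each). No culture of any of these 6 genes overlapped with the next in that order. Arg1, Nos3, Arg2 and Cybb followed, from 0.097 down to 0.044 CPM per kb, and each of them overlapped with its neighbour. In high glucose the order of the upper 6 was the same, with Nos2 at 1.25 ± 0.10 now near Gch1 at 1.88 ± 0.072, and the lower 4 lay between 0.054 and 0.067 CPM per kb. These lengths are exon unions of the GENCODE annotation of GRCm38, and the annotation used for the counts is not given in the sources used here.

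**Figure D2:**
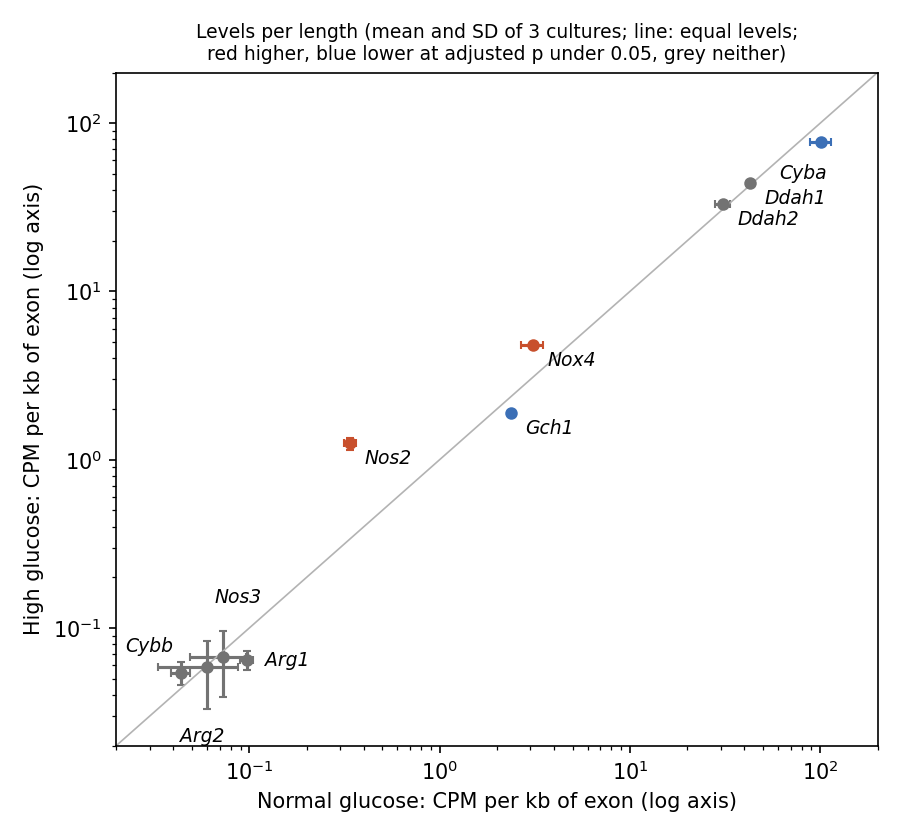
Mean level of each of the 10 genes in CPM per kb of exon (log axes) in normal glucose (horizontal) and high glucose (vertical), with the SD over 3 cultures and a line of equal levels. Nos2 lies farthest above the line, from 0.338 to 1.25 CPM per kb, while Cybb, Nos3, Arg1 and Arg2 lie lowest, at 0.044 to 0.097 CPM per kb on the horizontal axis and 0.054 to 0.067 on the vertical axis.

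Pathway genes around these 10 were read from 7 lists of 65 genes, of which 52 had enough counts to be tested. Of these 52, 12 were called higher and 18 lower, or 57.7% against the 31.4% of all tested genes called. The calls of each list below stand beside shares of 16.9% higher and 14.5% lower over all tested genes. The lists were written with earlier results of these data known, so this share is a description.

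Among 15 further NADPH oxidase subunits and partners, 6 were tested, with 2 called higher and 3 lower (median log2 fold change -0.094). Leaving out any normal glucose culture left 1 higher call and any high glucose culture 0, and without high glucose replicate 1 there was 1 lower call. Duox1, a dual oxidase that releases hydrogen peroxide, had 29, 35 and 34 counts in the normal and 9, 7 and 0 in the high glucose cultures, and it passed the filter through the normal glucose cultures alone. Rac1, a small GTPase that activates several of these oxidases, fell from 340.2 ± 28.3 to 295 ± 10.6 CPM (adjusted P = 0.0350). Poldip2, a p22phox binding protein known to raise NOX4 activity, rose from 95.1 ± 2.10 to 108 ± 2.34 CPM (SD, n = 3, adjusted P = 0.0140), and Noxo1, an organizer subunit, from 1.07 ± 0.0087 to 1.38 ± 0.129 CPM (adjusted P = 0.0450). On the opposite strand, Noxo1 shares 2122 bp (70.4%) of its exons with Tbl3 and Rac1 2309 bp (51.4%) with Daglb. Reads from such shared bases cannot be told apart without strand. Of the 9 genes not tested, Nox3, Duox2, Duoxa2 and Noxa1 had 0 counts in every culture. With the replicate number as a block, Noxo1 and Rac1 no longer passed (adjusted P = 0.0786 and 0.0581), and with library size scaling Poldip2 and Noxo1 did not pass (adjusted P = 0.239 and 0.134).

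Of 6 further superoxide sources and scavengers, all tested, 1 was called. Sod2, the mitochondrial superoxide dismutase, rose from 280.1 ± 6.79 to 412 ± 6.88 CPM (SD, n = 3), with a log2 change of 0.56 (SE 0.048, edgeR adjusted P = 1.47e-05). Sod1, the cytosolic form, and Sod3, the secreted form, had log2 fold changes of 0.014 and -0.052 (edgeR adjusted P = 0.929 and 0.524), and Sod3 passed as lower with library size scaling (adjusted P = 0.0348). Xdh, which encodes xanthine oxidoreductase, was abundant at 356 ± 14.6 and 376 ± 7.99 CPM (log2 fold change 0.076, adjusted P = 0.296). Cat and Aox1, for catalase and an aldehyde oxidase, also did not pass (log2 fold changes 0.10 and -0.053, adjusted P = 0.206 and 0.596).

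Arginine supply moved in both directions, with 3 of 9 tested genes called higher and 3 lower (1 higher without high glucose replicate 3). Slc7a2, a cationic amino acid transporter that is induced with Nos2 in other settings, rose from 50.4 ± 6.49 to 99.7 ± 1.66 CPM (SD, n = 3), with a log2 change of 0.98 (SE 0.084, edgeR adjusted P = 1.25e-05). Its constitutive relative Slc7a1 had 20.5 ± 2.43 and 19.6 ± 0.287 CPM (log2 fold change -0.064, adjusted P = 0.586). Per kb of exon the ratio of Slc7a2 to Slc7a1 went from 3.10 ± 0.074 to 6.41 ± 0.053 (SD, n = 3). Ass1, which with Asl regenerates arginine from the citrulline that nitric oxide synthases leave, fell from 434 ± 13.8 to 207 ± 4.04 CPM, with a log2 change of -1.07 (SE 0.050, edgeR adjusted P = 2.22e-07). Asl fell slightly (log2 fold change -0.19, adjusted P = 0.0487), a call lost with the replicate block (adjusted P = 0.0626). Odc1 and Oat, which use the ornithine that arginases produce, had log2 fold changes of -0.41 and 0.22 (adjusted P = 2.98e-04 and 0.00493). Slc3a2, the heavy chain of amino acid exchangers, had one of 0.18 (adjusted P = 0.0187), and with library size scaling neither Oat nor Slc3a2 passed (adjusted P = 0.0866 and 0.330). Agmat had 0 counts in every culture.

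The tetrahydrobiopterin list beside Gch1 had 3 of 7 tested genes called lower and 0 higher by edgeR. All 7 had log2 fold changes below 0, which by itself fixes the number of higher calls at 0 for any threshold. DESeq2 also called 0 higher. The 4 genes not called had log2 fold changes from -0.063 to -0.035. Gchfr, whose product gives feedback inhibition of GTP cyclohydrolase, had 57, 39 and 54 counts in the normal and 18, 22 and 27 in the high glucose cultures (log2 fold change -1.15, adjusted P = 0.0115). Pcbd1, which recycles the cofactor during aromatic amino acid hydroxylation, fell from 5.27 ± 0.119 to 3.38 ± 0.044 CPM (SD, n = 3, adjusted P = 2.01e-04). Pts and Spr, the steps that follow Gch1, had log2 fold changes of -0.035 and -0.063 (adjusted P = 0.728 and 0.481), and Spr passed as lower with library size scaling (adjusted P = 0.0471).

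**Figure D3:**
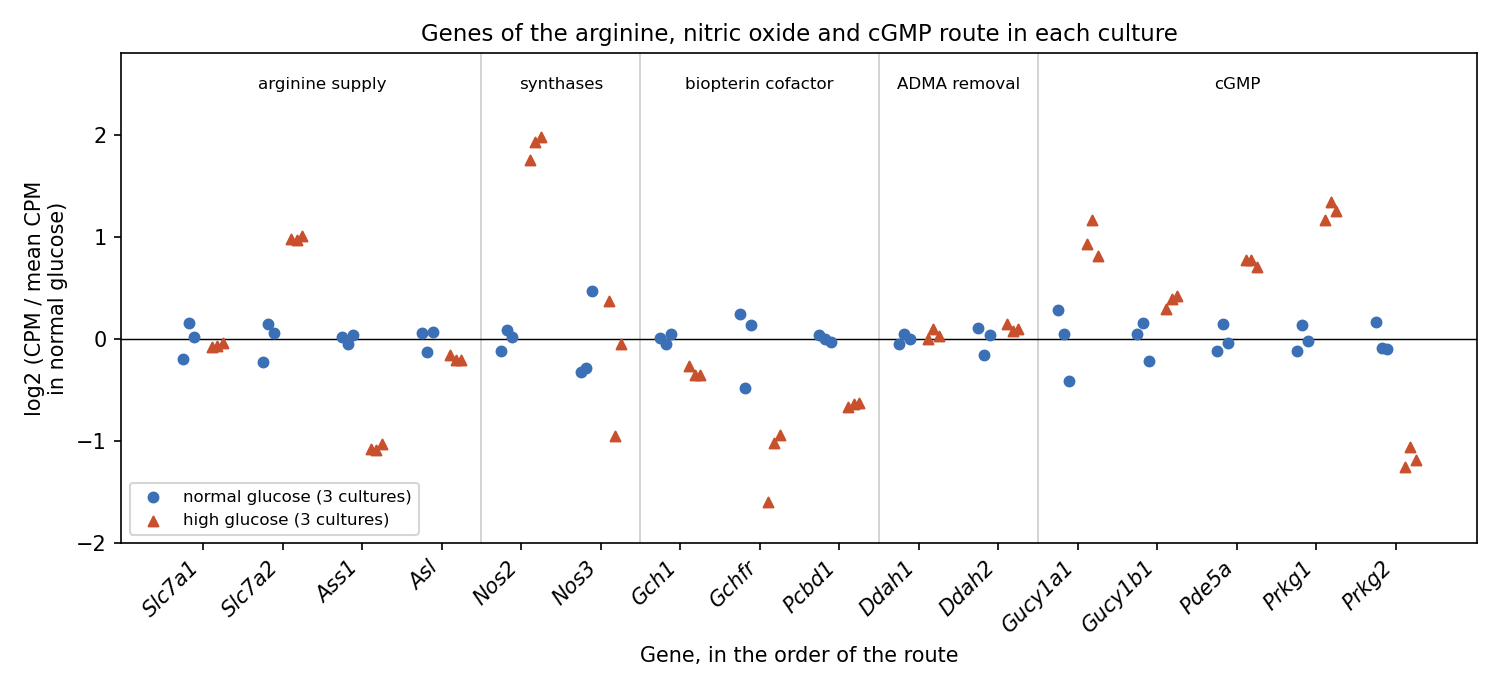
Level of each gene in each culture as log2 of its CPM over the mean CPM in normal glucose, for genes of arginine supply, the synthases, the biopterin cofactor, ADMA removal and cGMP signaling (circles, 3 normal glucose cultures, and triangles, 3 high glucose cultures). Nos2, Slc7a2, Pde5a, Prkg1, Gucy1a1 and Gucy1b1 lie above the normal glucose cultures in high glucose, Ass1, Asl, Gch1, Gchfr, Pcbd1 and Prkg2 lie below them, and Nos3, Ddah1, Ddah2 and Slc7a1 overlap with them.

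Of 11 synthase partners and related genes, all tested, 7 were called lower and 1 higher (median log2 fold change -0.25). The lower calls numbered 4 without high glucose replicate 3, and the higher calls 0 without normal glucose replicate 3 or without high glucose replicate 2. The chaperone genes Hsp90aa1 and Hsp90ab1, the calmodulin gene Calm2 and Dynll1 fell by 0.42, 0.18, 0.32 and 0.21 on the log2 scale (adjusted P = 0.00201, 0.0418, 0.00257 and 0.00967). All of them serve many other proteins. Cav1, the caveolar protein that holds the endothelial synthase inactive, fell from 223 ± 13.7 to 178 ± 6.25 CPM (SD, n = 3, adjusted P = 0.00219), and Nostrin, which guides its traffic, from 0.779 ± 0.097 to 0.479 ± 0.096 CPM (adjusted P = 0.0191). Nos1ap, an adaptor of the neuronal synthase, rose from 2.53 ± 0.641 to 3.88 ± 0.084 CPM (adjusted P = 0.0155). Nos1 itself had 15 to 34 counts and did not pass (log2 fold change -0.48, adjusted P = 0.289). Hsp90ab1 did not pass with the replicate block (adjusted P = 0.0735).

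The arginine methyltransferases, whose products release ADMA, had 1 of 5 tested genes called higher and 1 lower (0 higher without high glucose replicate 1 or without high glucose replicate 3). Carm1 rose from 117 ± 11.2 to 139 ± 6.08 CPM (SD, n = 3, adjusted P = 0.0240), a call lost with library size scaling (adjusted P = 0.175), and Prmt2 fell from 28.2 ± 1.92 to 23.2 ± 0.812 CPM (adjusted P = 0.00626). Carm1 shares 1025 bp of exon with Yipf2 on the opposite strand. For Prmt1, the main source of ADMA, the log2 fold change was -0.070 (adjusted P = 0.348), and it passed as lower with library size scaling (adjusted P = 0.0188).

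Downstream of nitric oxide, 4 of 8 tested genes were called higher and 1 lower (median log2 fold change 0.15), or 3 lower without normal glucose replicate 2. Gucy1a1 and Gucy1b1, subunits of the guanylate cyclase that nitric oxide activates, rose from 0.532 ± 0.125 to 1.05 ± 0.134 CPM and from 2.20 ± 0.285 to 2.85 ± 0.129 CPM (SD, n = 3, adjusted P = 0.00344 and 0.0366). Gucy1b1 passed neither with the replicate block (adjusted P = 0.0552) nor with upper quartile or library size scaling (adjusted P = 0.0602 and 0.131). Gucy1a2, another subunit, had 93, 199 and 121 counts in the normal and 161, 93 and 139 in the high glucose cultures, which overlapped (log2 fold change -0.060, adjusted P = 0.870). Pde5a, which degrades cGMP, rose from 5.95 ± 0.570 to 10.0 ± 0.260 CPM (adjusted P = 9.55e-05). The cGMP-dependent kinase genes moved apart. Prkg1, the form of smooth muscle and fibroblasts, rose from 21.2 ± 1.94 to 50.5 ± 3.01 CPM (log2 fold change 1.25, SE 0.075, adjusted P = 1.02e-06), and Prkg2, the membrane-bound form, fell from 9.75 ± 1.04 to 4.35 ± 0.295 CPM (log2 fold change -1.16, SE 0.098, adjusted P = 1.18e-05). Per kb of exon, the ratio of Prkg1 to Prkg2 was 1.09 ± 0.191 in normal glucose and 5.73 ± 0.067 in the high glucose cultures (SD, n = 3).

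**Figure D4:**
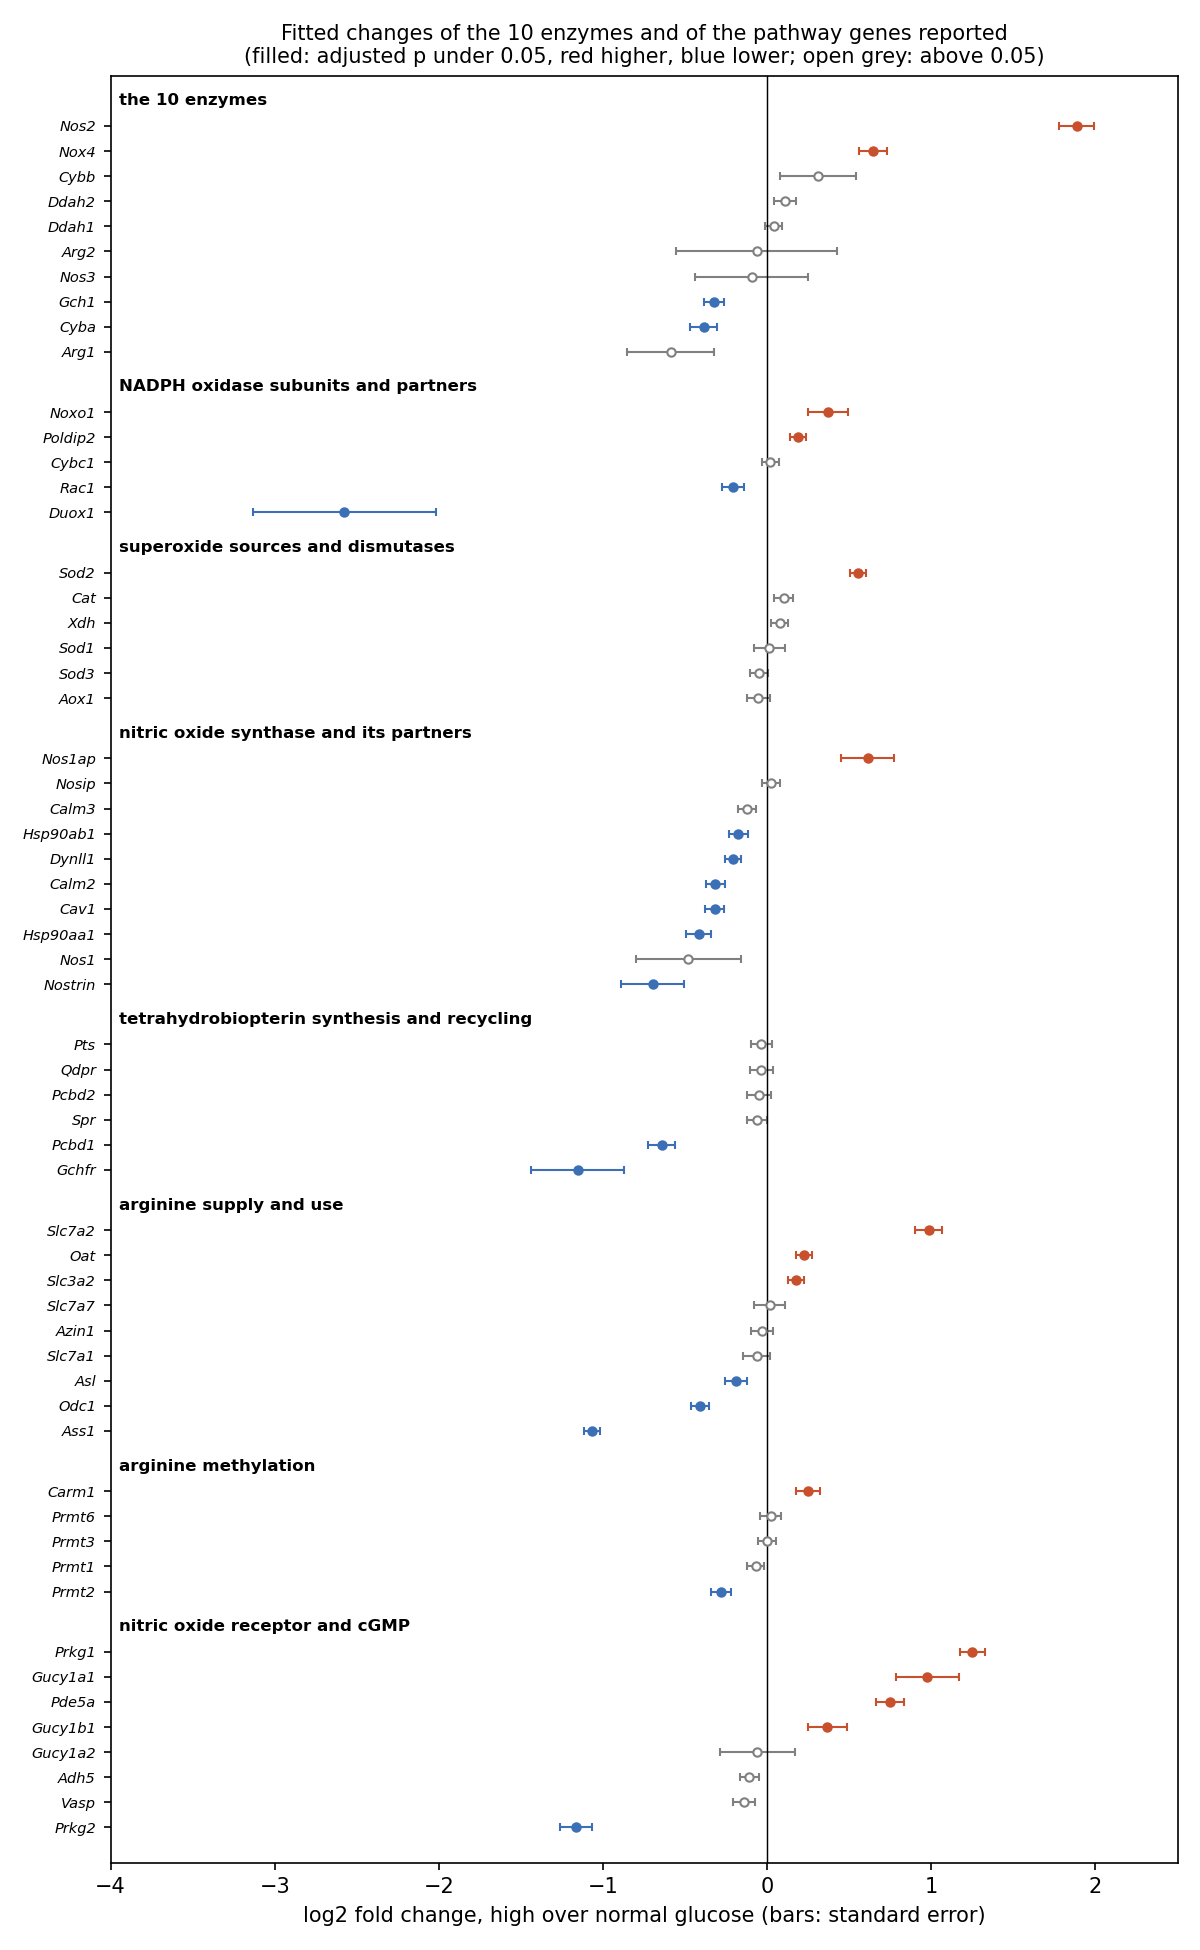
Log2 fold change (high over normal glucose) with its standard error (SE) for the 10 enzymes and for the pathway genes reported here, by list. Filled points passed an adjusted P value of 0.05 (red higher, blue lower) and open points did not. The points farthest from 0 are Nos2 at 1.89 and Duox1 at -2.58. Duox1 was scarce and passed the filter through the normal glucose cultures alone.

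Markers of several cell types moved with glucose, and their part in the changes above was not tested. Over all tested genes, 16.9% were called higher and 14.5% lower. Of 13 fibroblast markers 9 were called higher and 2 lower, with a median log2 fold change of 0.48. The summed level of the fibroblast markers, in which the most abundant genes weigh most, was 40960 to 44280 CPM in normal glucose and 73580 to 78430 in high glucose. Of 14 macrophage markers 7 were tested, with 1 called higher (Cd14) and 3 lower, a summed level of 17.7 to 20.1 CPM in normal glucose and 27.0 to 28.0 in high glucose, and 0 counts of Tyrobp in any culture. Cd14 alone went from 9.47 ± 0.554 to 21.1 ± 0.045 CPM (SD, n = 3). The smooth muscle and pericyte markers had 5 of 8 tested genes lower and 1 higher (638 to 714 CPM in normal glucose, 538 to 564 in high glucose). The endothelial list had 3 of 10 lower and 2 higher (216 to 243 and 194 to 199.8 CPM), with Sox17 at 0. Of the 2 higher calls, Erg passed the filter through the high glucose cultures alone (5, 8 and 2 against 14, 15 and 12 counts). With the replicate block Erg was lost (adjusted P = 0.0576). Egfl7, a lower call (log2 fold change -0.23), was lost as well (adjusted P = 0.0666). The block left 1 higher and 2 lower calls in this list. Of 7 keratinocyte markers 3 were tested and 1 was higher, Krt5, with 2 counts in each normal glucose culture and 12 to 23 in high glucose. Krt5 passed the filter through the high glucose cultures alone. The list summed to 4.05 to 5.03 and 4.61 to 5.04 CPM.

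Genes whose pattern over the 6 cultures was most like that of Nox4 or Nos2 were sought among 12478 other tested genes whose mean log2 CPM was 1 or more. Likeness was the root mean square difference of the centred log2 CPM. For Nox4 the nearest were Arhgap20 (0.021), Slc16a7 (0.025) and Smg1 (0.042), with log2 fold changes of 0.64, 0.62 and 0.62. For Nos2 they were Egfl6 (0.056), Ntrk2 (0.057) and Lbp (0.068), with log2 fold changes of 1.83, 1.84 and 1.93. All 6 share these same libraries, and with a contrast between only 2 groups many genes can come close to a given pattern.

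**Figure D5:**
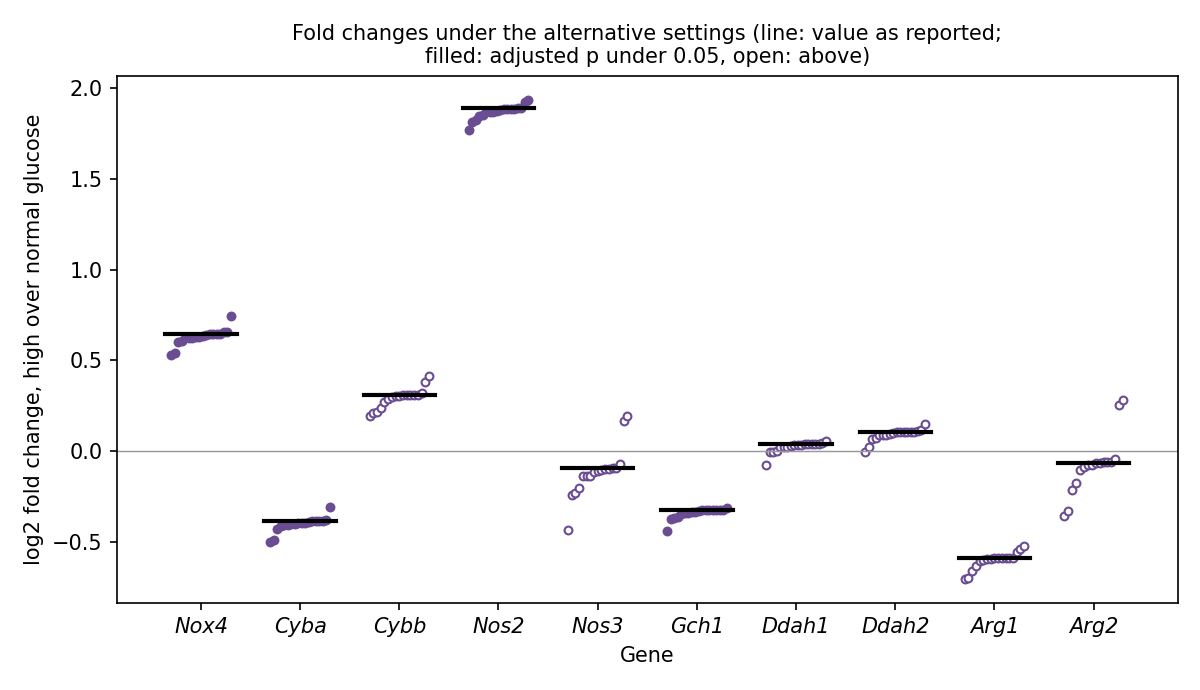
Log2 fold change of each of the 10 genes under the alternative settings (points, filled where the adjusted P value was under 0.05), with the reported value as a line. All points of Nox4, Cyba, Nos2 and Gch1 are filled and on the same side of 0, whereas those of Nos3, Ddah1, Ddah2 and Arg2 cross 0 and are open.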

How the data were processed

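Per the methods and the submitters' processing notes, the authors used Trimmomatic for trimming, HISAT2 for alignment to GRCm38 and StringTie to count reads, and deposited whole-number counts per gene without normalization. Versions, annotation release and strand setting are not given in the sources used here. The labels name a DNBSeq platform and the methods a HiSeq one. Of 55487 identifiers, 55141 had a symbol. Counts were filtered with filterByExpr (minimum count 10, minimum total 15), normalized by TMM and compared with edgeR 4.0.16 in R 4.3.3 (quasi-likelihood test, Benjamini-Hochberg adjustment, threshold 0.05), which was tested on simulated data. Standard errors come from the test statistic, and intervals (95%) use the same degrees of freedom. Both reads of a pair may have been counted, as 9280 table entries equal 2 and 10842 equal 1. The intervals include the fitted spread between cultures, whereas the floors rest on counts alone. Replicates differed by more than sampling noise (chi-square per degree of freedom at least 9.64).

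Genes named are the 10 enzymes, called or scarce members of the pathway lists, defining cell type markers, genes overlapping an enzyme, and the 3 genes of most similar pattern for Nox4 and Nos2. Outside that rule, and after their values were seen, Tbl3, Daglb and Yipf2 were named for their overlaps and Sod1, Sod3, Cat, Aox1, Xdh, Slc7a1, Pts, Spr, Prmt1, Gucy1a2 and Nos1 as pathway genes that did not pass. Sox17, Eng, Flt1, Egfl7, Kdr, Erg, Tyrobp, Cd68, Lyz2 and Cd14 were also named from the marker lists, although they are not among the defining markers. The 10 genes and the lists were chosen with earlier results of these data known. Alternatives were other tests (likelihood ratio, exact, DESeq2 1.42.0, robust fit), thresholds, scalings and filters, summed symbols, halved counts, the replicate block, and each culture left out. Positions and exon lengths came from GENCODE M21 and promoters from RefSeq (GRCm38.p6). Some genes of the lists enter the counts but are not reported here by name.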

Additional observations from a re-analysis of the deposited data

How the results depend on the processing

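Under 20 alternatives the numbers of the 10 enzymes called higher (2) and lower (2) changed only with a minimum absolute log2 fold change of 1, which by its construction left 1 higher (Nos2) and 0 lower. Over the 18 alternatives run on single genes, Nox4 lay between 0.53 and 0.74, Nos2 between 1.77 and 1.93, Cyba between -0.50 and -0.31 and Gch1 between -0.44 and -0.31 on the log2 scale, each with an adjusted p under 0.05 throughout (highest 0.00395, 3.11e-05, 0.0213 and 0.0180). Cybb and Arg1 kept their direction and stayed above 0.05. The other 4, none of which passed in any setting, changed sign somewhere. Ddah1 was -0.0022 with upper quartile normalization and -0.075 with library size scaling, and Ddah2 was -0.0070 with the latter. With each culture left out, Ddah1 ranged from -0.0025 to 0.054 (below 0 without normal glucose replicate 1 or high glucose replicate 2), Nos3 from -0.43 to 0.19 (above 0 without normal glucose replicate 3 or high glucose replicate 2) and Arg2 from -0.36 to 0.28 (above 0 without normal glucose replicate 3 or high glucose replicate 1). Cybb, Nos3, Arg1 and Arg2 had too few counts for the filter of 1 CPM, which gave them no value, and Arg2 had too few when counts were halved.

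The numbers over all genes (3212 higher, 2757 lower) were 1946 and 1671 at an adjusted p under 0.01, 395 and 542 with the minimum fold change, and 1819 and 4884 with library size scaling, which shifted the median log2 fold change by -0.115 and raised the share of lower calls from 46.2% to 72.9% (56.5% with upper quartile normalization). Leaving out each culture gave 1988 to 3149 higher and 2048 to 3065 lower genes, the lowest higher counts being 2010 without high glucose replicate 1 and 1988 without high glucose replicate 3.

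The labels number replicates 1 to 3 in both groups. Deviations of same-numbered cultures from their group means correlated at -0.087, 0.040 and 0.062 across genes, and 2 of 6 cultures correlated best with their own number, so the numbers were not taken to pair the cultures. With the replicate block, the log2 fold changes of Nox4, Nos2, Cyba and Gch1 were 0.65, 1.89, -0.38 and -0.32 (adjusted p = 0.000359, 1.63e-05, 0.00756 and 0.0110), and no call of the 10 enzymes changed.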
